A study of Mus musculus with 6 samples.

Results

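The genes described here handle iron and heme in the mouse liver. They are 10 of the 35540 named genes measured: the hepcidin genes Hamp and Hamp2, the plasma iron carrier gene Trf, the transferrin receptor genes Tfrc and Tfr2, the iron exporter gene Slc40a1, the ferritin genes Fth1 and Ftl1, and the genes for the scavengers of free heme and free hemoglobin, Hpx and Hp. They were chosen by name for these functions, and their level was the sum of TPM over all transcripts carrying the gene symbol. TPM are the reads assigned to a transcript divided by its length, scaled to a total of 1000000 per library. RNA was sequenced from the livers of 6 Surf4 fl/fl mice, 3 that carried the Alb-Cre transgene (Alb-Cre+) and 3 controls that did not (Alb-Cre-), one library per mouse, to ask how hepatic loss of SURF4 changes gene expression. SURF4 is a cargo receptor that carries newly made proteins out of the endoplasmic reticulum. All 6 mice, on a C57BL/6 J background, carried the conditional allele with loxP sites around Surf4 exon 2. Cre was driven by the Albumin promoter, which is active in hepatocytes, so the other cells of an Alb-Cre+ liver keep the unexcised allele. Mice 1 and 3 of each genotype were male and mouse 2 was female. The mice ate chow freely, the study's methods describe an overnight fast before sample collection, and the age of these 6 mice is not stated in the labels.

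Hepatocytes are the body's main source of hepcidin, a small peptide hormone that binds ferroportin, the protein of Slc40a1, and so keeps iron inside cells. Hepcidin transcription responds to iron through BMP ligands and SMAD proteins and to inflammation through interleukin-6 and STAT3. Transferrin, haptoglobin and hemopexin are secreted by hepatocytes into plasma, whereas ferroportin in liver is made largely by Kupffer cells, the resident macrophages. Ferritin, ferroportin and transferrin receptor 1 are also set after transcription, by iron regulatory proteins that bind a hairpin in their mRNAs, so an mRNA level gives only part of their control.

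Surf4, counted over its whole transcripts and not over the deleted exon alone, was read first. Its level was 59.01, 71.8 and 54.3 TPM in Alb-Cre+ mice 1, 2 and 3, and 92.5, 94.5 and 92.5 TPM in Alb-Cre- mice 1, 2 and 3, so every Alb-Cre+ liver lay below every control. The difference was -0.60 on the log2 scale with a standard error (SE) of 0.13, which limma gave an unadjusted p of 0.00269, and an adjusted p of 1.00 over all genes. The 10 hepatocyte markers summed to 62928 to 84184 TPM per liver, of which Alb alone was 38059 to 55646 TPM. In the summed level of 20 acute phase genes, which hepatocytes raise in inflammation, Alb-Cre+ mouse 2 was the highest at 36751 TPM, followed by Alb-Cre- mouse 3 at 23347 and Alb-Cre- mouse 2 at 18529.9 TPM, and the other 3 livers were at 7539 to 9123 TPM. The sex differences of Hamp2, Slc40a1, Trf, Hpx and Hp, and some other differences, are also given without Alb-Cre+ mouse 2. In the fits without that mouse, the median log2 difference of all genes tested was 0.14 between sexes and -0.12 between genotypes. Differences were fitted with limma on log2(TPM + 0.1) over 14189 genes whose mean reached 0.1 TPM, and a gene was called at a Benjamini-Hochberg adjusted p under 0.01. On this scale the change of a gene of low level is understated. The study describes the controls as littermates, but the labels do not say which mice shared a litter or cage. The p-values measure the spread between these mice. SEs and intervals between genotypes come from the fit that does not pair mice by number. With same-numbered mice paired, the SE between genotypes was 0.18 in place of 0.71 for Hamp2 and 0.41 in place of 0.70 for Hpx. All 10 iron genes passed the minimum level.

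The 10 genes took up 2.67% to 6.66% of all TPM per liver. By the median over the 6 livers their levels ran Trf (8399.8 TPM), Hp (6402), Hpx (5886), Ftl1 (4979), Hamp (4304), Fth1 (2728), Hamp2 (352), Tfr2 (140.5), Slc40a1 (61.6) and Tfrc (14.7 TPM). From Trf down to Hamp the ranges of neighbours in this order overlapped, so their order is not settled beyond the spread of the mice. From Hamp down, no neighbours overlapped, and each gene was above the next in 6 of 6 livers. Genes differed widely in how much they varied: the highest liver was 1.19 times the lowest for Tfr2, 1.21 times for Fth1 and 1.31 times for Ftl1, but 5.23 times for Hp, 5.52 times for Hpx and 5.75 times for Hamp2.

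**Figure D1:**
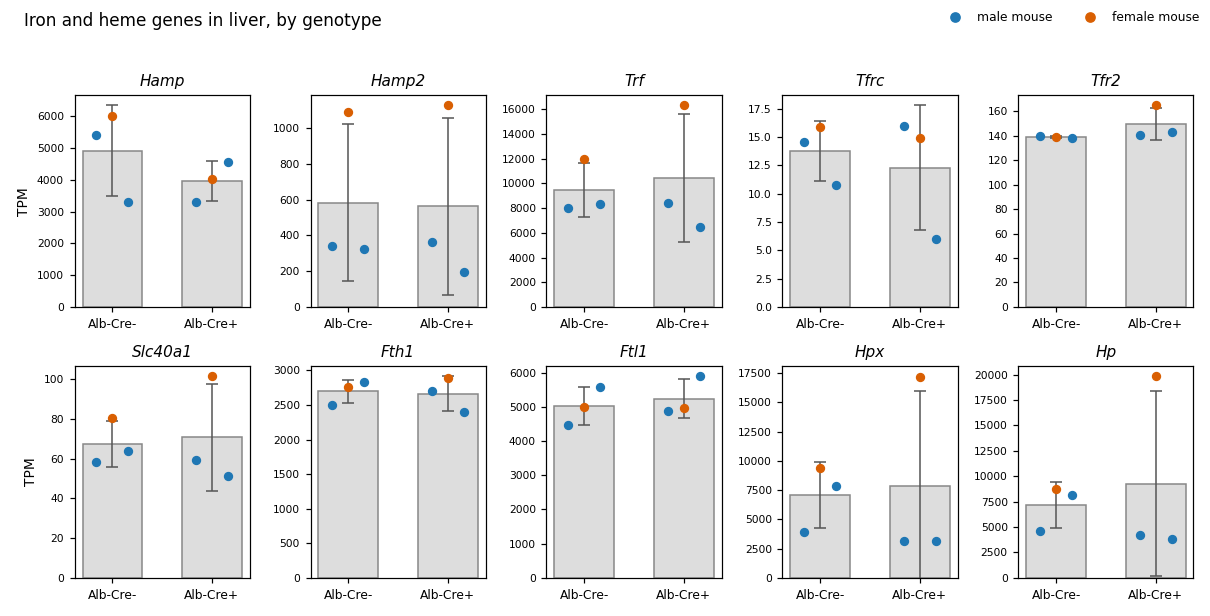
TPM (vertical axes, each starting at 0) of the 10 iron and heme genes in the livers of 3 Alb-Cre- and 3 Alb-Cre+ mice; each point is a mouse, in blue for male and orange for female, grey bars are means and error bars are SD. The genotypes overlap for every gene except Tfr2, and the orange points are the highest of their genotype for Hamp2, Trf, Slc40a1, Hpx and Hp.

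Loss of hepatocyte Surf4 was compared first. None of the 10 genes was called between genotypes by limma, where 0% of all genes tested were called (0 of 14189). None of the 10 reached an unadjusted p under 0.05, as 1.76% of all genes did (250). In this fit the smallest limma adjusted p of any gene was 0.456, and Surf4 itself was not called. A missing call therefore says little about a single gene here. The study's own DESeq2 comparison did report significant genes between genotypes, with Derl3 the most significantly raised. The unadjusted p of the 10 ran from 0.355 to 0.9796. 4 of the 10 had a higher mean log2 value in Alb-Cre+ livers and 6 a lower one, with a median difference of -0.018 beside -0.0017 for all genes tested. The 95% intervals (CI) limit what could have been missed. For Fth1 the ratio of Alb-Cre+ to Alb-Cre- lay between 0.757 and 1.29, for Tfr2 between 0.894 and 1.29, and for Ftl1 between 0.761 and 1.43. For Hamp it lay between 0.526 and 1.301. Over Hamp2, Hpx and Hp together, the lowest bound of the 3 intervals was 0.266 and the highest 2.84. Differences inside the interval of a gene are not shown to be absent.

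The sexes were compared with genotype as a term, 2 female livers against 4 male livers. Both females carry the number 2, so sex and whatever else same-numbered mice share cannot be told apart. At an adjusted p of 0.01, 0.514% of genes were called between the sexes (73) and none of the 10 was. At 0.05, 7.18% of genes were called (1019) and 1 of the 10, Hamp2. 5 of the 10 (Hamp2, Trf, Slc40a1, Hpx and Hp) had an unadjusted p under 0.05 with the higher level in females, as 25.6% of all genes did. The same 5 were higher in both females than in every male, as 36.6% of all genes were. Most genes, 76.7% of those tested, were higher in females in TPM, with a median difference of 0.26 over all genes tested, and scaling the livers by median of ratios brought these to 55.2% and 0.054. After that scaling the 5 differences were 1.68 for Hamp2, 1.39 for Hpx, 1.19 for Hp, 0.62 for Trf and 0.42 for Slc40a1, while Fth1 (0.12 before, -0.098 after) and Tfr2 (0.11 before, -0.11 after) changed sign.

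**Figure D2:**
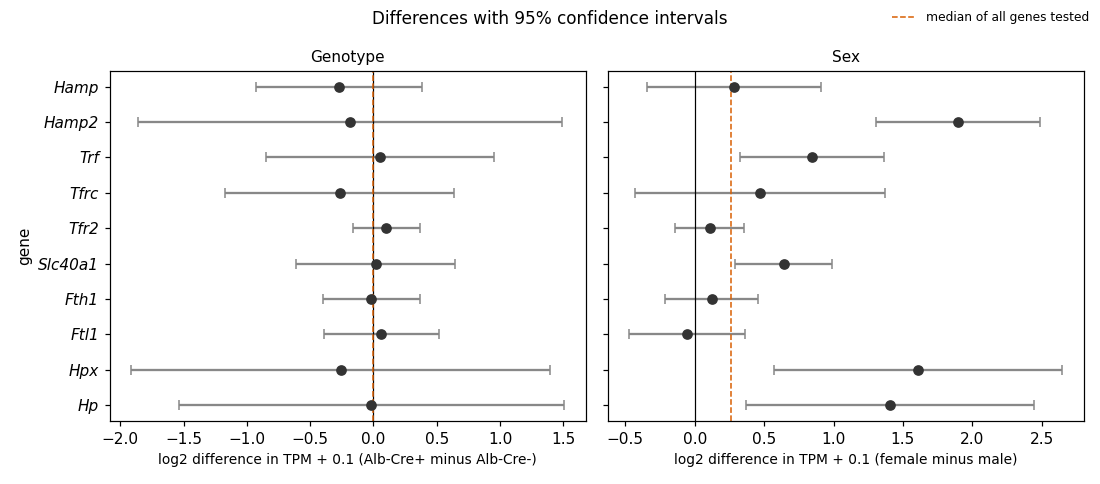
Log2 differences in TPM + 0.1 (horizontal axes) of the 10 genes (vertical axis), for Alb-Cre+ minus Alb-Cre- on the left and female minus male on the right; points are limma estimates, bars are 95% confidence intervals, the solid line is 0 and the dashed line is the median of all genes tested. All 10 intervals on the left cross 0, and on the right those of Hamp2, Trf, Slc40a1, Hpx and Hp do not.

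Hamp encodes hepcidin, and Hamp2 is its neighbouring duplicate in the mouse, on the same strand (chr7:30942368-30944032 and chr7:30922372-30924681, both on the minus strand of GRCm38 with the GENCODE M21 annotation). The 2 promoters are shown because the genes differed in pattern while their start regions are nearly alike. Windows of 250 bases before and 50 bases after each RefSeq start (GRCm38.p6, minus strand) aligned with 276 of 297 bases identical (92.9%). The stretches below lie 133 to 65 bases before the RefSeq start of Hamp (chr7:30944094-30944162) and 130 to 62 bases before that of Hamp2 (chr7:30924243-30924311). The Hamp2 stretch falls inside the GENCODE M21 bounds of its gene, so the 2 annotations differ in where Hamp2 starts. The Hamp stretch falls outside the bounds of Hamp. Capitals mark the 6 bases that read GGCGCC in Hamp, the core letters of BMP-responsive elements, and the letters TTCNNNGAA of a STAT site.
Hamp: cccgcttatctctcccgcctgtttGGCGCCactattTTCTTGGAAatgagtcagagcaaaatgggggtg
Hamp2: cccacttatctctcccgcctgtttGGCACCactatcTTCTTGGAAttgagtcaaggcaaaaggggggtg
Counted from the first base of the GGCGCC core of Hamp, the only difference within it was G4A in Hamp2, and the STAT letters did not differ. Both motifs read the same on either strand, and they do not overlap each other. GGCGCC occurred in 11.9% of the 32851 RefSeq windows of this length and TTCNNNGAA in 8.3%. Of the 7 iron genes with a window, GGCGCC was in those of Hamp and Tfrc and TTCNNNGAA in those of Hamp and Hamp2. A match of letters is no measure of binding.

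Hamp was at 3308, 4035 and 4574 TPM in Alb-Cre+ mice 1, 2 and 3, and 5416, 6024 and 3309 TPM in Alb-Cre- mice 1, 2 and 3. Its lowest values were in a mouse of each genotype, and the genotypes overlapped. The difference was -0.27 (SE 0.28, 95% CI -0.93 to 0.38) on the log2 scale. It was negative without each mouse in turn, from -0.54 to -0.10 over all alternatives. Within same-numbered mice, Alb-Cre+ was at -0.71 for mice 1, -0.58 for mice 2 and 0.47 for mice 3 relative to Alb-Cre-.

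Hamp2 was at 365, 1127 and 196 TPM in Alb-Cre+ mice 1, 2 and 3, and 338, 1088 and 323 TPM in Alb-Cre- mice 1, 2 and 3. Both females, 1 of each genotype, stood above all 4 males. The genotype difference was -0.19 (SE 0.71), and turned to 0.38 without Alb-Cre+ mouse 3. The female minus male difference was 1.90 on the log2 scale (SE 0.25), a 3.72-fold higher level, with a limma adjusted p of 0.0145 that ranged from 0.00731 to 0.235 over the alternatives. Without Alb-Cre+ mouse 3, the male with the least Hamp2, it was 1.68 and was called at 0.01. Without Alb-Cre+ mouse 2 it was 1.72, with an adjusted p of 0.235. For Hamp the same difference was 0.28 (SE 0.26), near the median of all genes. The ratio of Hamp2 to Hamp in the same liver, which no scaling changes, was 0.181 and 0.279 in the Alb-Cre- and Alb-Cre+ females and 0.0428 to 0.1103 in the males. The genes share sequence: of the stretches of 31 bases in the annotated transcripts, 33.7% of those of Hamp occur in Hamp2 and 23.1% of those of Hamp2 in Hamp, so part of their reads could be assigned to either.

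Of 20 tested genes of the BMP/SMAD and iron-sensing branch that sets hepcidin, 0 were called between genotypes, 0 had an unadjusted p under 0.05, 11 were higher and 9 lower in Alb-Cre+, and the median difference was 0.024. Id1, a direct transcriptional target of SMAD signalling, was at 13.6, 51.1 and 18.8 TPM in Alb-Cre+ mice 1, 2 and 3, and 20.4, 98.99 and 22.8 TPM in Alb-Cre- mice 1, 2 and 3. It was highest in the 2 females, with a female minus male difference of 1.93 (SE 0.19, limma adjusted p = 0.00688), and it was the only gene of this list called between the sexes. The call was lost after median-of-ratios scaling (adjusted p = 0.0221), without a minimum level (0.0269), without the variance trend (0.0227) and without any 1 mouse except Alb-Cre+ mouse 3 (0.0149 to 0.127). Smad7, an inhibitory SMAD and itself a target, was at 2.82, 3.09 and 2.36 TPM in Alb-Cre+ mice 1, 2 and 3, and 3.01, 7.24 and 1.83 TPM in Alb-Cre- mice 1, 2 and 3, and its sex difference was 0.92 (adjusted p = 0.153). Bmp6, the iron-responsive ligand made by sinusoidal endothelial cells, ranged from 1.799 to 3.22 TPM, with a sex difference of 0.40 (adjusted p = 0.294).

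Membrane proteins of hepcidin control gave no call. Hjv, the BMP co-receptor hemojuvelin, differed by 0.33 between genotypes, Hfe, the hemochromatosis protein, by -0.27, and Tmprss6, the protease that cleaves hemojuvelin, by 0.033. Tmprss6 was at 127 and 125 TPM in the females and at 149.7 to 161 TPM in the males, without overlap (difference -0.30, adjusted p = 0.105). Over the list, 18 of 20 genes were higher in females (76.7% of all genes), 10 of them with an unadjusted p under 0.05 (25.6% of all genes), and the median difference was 0.43, or 0.22 after median-of-ratios scaling.

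**Figure D3:**
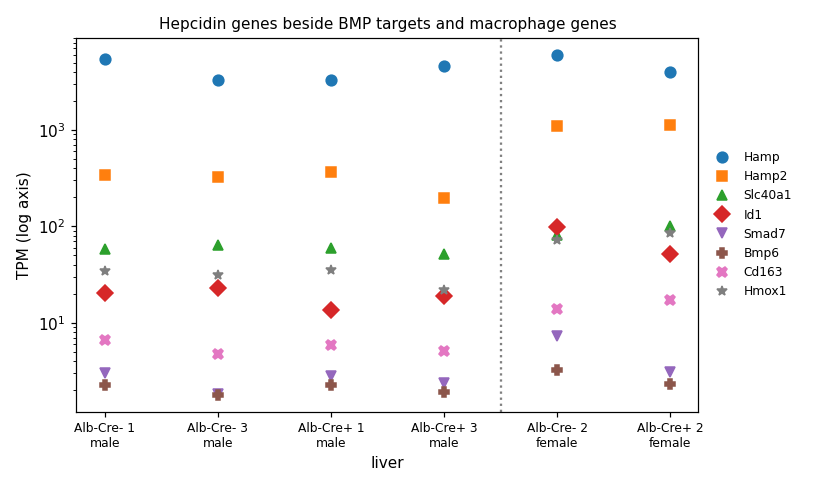
TPM on a log axis (vertical) in each liver (horizontal, 4 males left of the dotted line and 2 females right of it) for Hamp, Hamp2, Slc40a1, the BMP pathway genes Id1, Smad7 and Bmp6, and the macrophage receptor gene Cd163 with the heme oxygenase gene Hmox1. Hamp2, Slc40a1, Id1, Cd163, Hmox1, Smad7 and Bmp6 are higher in both females than in any male, and Hamp is not.

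Slc40a1, the gene for ferroportin, was at 59.4, 102 and 51.4 TPM in Alb-Cre+ mice 1, 2 and 3, and 58.2, 80.6 and 63.8 TPM in Alb-Cre- mice 1, 2 and 3. Both females exceeded all males. The difference between genotypes was 0.017 (SE 0.27), and became -0.27 without Alb-Cre+ mouse 2, where the median of all genes was -0.12. That between sexes was 0.64 (SE 0.15, limma adjusted p = 0.0508, and 0.0442 to 0.356 over the alternatives), and became 0.40 (adjusted p = 0.356) without Alb-Cre+ mouse 2. Macrophage markers lay higher in the same livers. All 13 of 13 Kupffer cell and macrophage markers were higher in both females than in every male (36.6% of all genes were), with a median difference of 1.46, or 1.24 after median-of-ratios scaling. Their summed level was 886 and 943 TPM in the females against 262 to 381 TPM in the males. Vsig4, a complement receptor of Kupffer cells, was the only one called (1.59, adjusted p = 0.00791), a call lost without any 1 of the 6 mice (0.0135 to 0.171), without a minimum level (0.0275) and without the variance trend (0.0247). Cd163, the macrophage receptor for haptoglobin-hemoglobin complexes, was at 17.05 and 13.8 TPM in the Alb-Cre+ and Alb-Cre- females and at 4.79 to 6.56 TPM in the males. The part of these cells in the sex differences of Slc40a1 and Hamp2 was not tested, and in whole liver more cells of a type and more RNA per cell cannot be told apart. Between genotypes 4 of the 13 markers were higher, with a median of -0.076.

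Trf encodes transferrin, which carries iron in plasma. It was at 8437, 16322 and 6506 TPM in Alb-Cre+ mice 1, 2 and 3, and 8018, 11964 and 8363 TPM in Alb-Cre- mice 1, 2 and 3. The females were the highest of each genotype, and Alb-Cre+ mouse 2 the highest of all. Genotypes differed by 0.053 (SE 0.38), or -0.33 without that mouse, where the median of all genes was -0.12. Sexes differed by 0.84 (SE 0.22, limma adjusted p = 0.0664), or 0.55 without that mouse (adjusted p = 0.477), with 0.0575 to 0.477 over the alternatives. Of the stretches of 31 bases in Trf transcripts, 60.6% also belong to Gm20425, an annotated gene that overlaps it and was not used here.

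Tfrc, the gene for transferrin receptor 1, which takes up iron-loaded transferrin, was the lowest of the 10, at 15.98, 14.9 and 5.96 TPM in Alb-Cre+ mice 1, 2 and 3, and 14.6, 15.9 and 10.8 TPM in Alb-Cre- mice 1, 2 and 3. Alb-Cre+ mouse 3 stood below the other 5, which lay between 10.8 and 15.98 TPM. Genotypes differed by -0.27 (SE 0.38), or 0.18 without mouse 3. Tfr2, which encodes the transferrin receptor that hepatocytes use to sense iron-loaded transferrin, was at 141, 165 and 143 TPM in Alb-Cre+ mice 1, 2 and 3, and 139.9, 139 and 138 TPM in Alb-Cre- mice 1, 2 and 3. It was the only one of the 10 whose genotypes did not overlap, as was so for 4.9% of all genes tested, and after median-of-ratios scaling they did. The lowest Alb-Cre+ and highest Alb-Cre- livers were 141 and 139.9 TPM, the difference was 0.10 (SE 0.11), and the exact two-sided permutation p of 0.1 is the smallest that 3 mice against 3 allow. Without Alb-Cre+ mouse 2 it was 0.031.

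The hairpins that iron regulatory proteins bind, iron-responsive elements, are shown because 4 of the 10 genes carry them. A search of the mRNA strand of all GENCODE M21 coding transcripts for a C, 5 bases, the loop CAGTGN and 5 bases that pair with those before the loop (G with T allowed) matched 294 of 21877 coding genes (1.34%). Matches lay in the 5′ UTR of 31 genes (0.142%) and the 3′ UTR of 129 (0.59%). Of the 10 iron genes it matched 4. Fth1 (chr19:9982733-9982760, plus strand of GRCm38), Ftl1 (chr7:45459779-45459806, minus strand) and Slc40a1 (chr1:45925465-45925492, minus strand) held 1 each in the 5′ UTR, close to the start of the mRNA. Tfrc held 4 in the 3′ UTR (from chr16:32631220-32631247 to chr16:32631711-32631738, plus strand). Capitals mark the loop.
Fth1: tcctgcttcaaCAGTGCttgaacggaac
Ftl1: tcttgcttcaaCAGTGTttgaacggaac
Slc40a1: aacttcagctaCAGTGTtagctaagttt
Tfrc hairpin 1: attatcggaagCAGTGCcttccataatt
Tfrc hairpin 2: attatcgggagCAGTGTcttccataatg
Tfrc hairpin 3: tatatcggagaCAGTGAtctccatatgt
Tfrc hairpin 4: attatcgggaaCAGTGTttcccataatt
The hairpins of Tfrc are known to set its mRNA level, and those of Fth1, Ftl1 and Slc40a1 to set translation.

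The ferritin genes were the steadiest of the abundant ones. Fth1, the heavy subunit that oxidises iron, was at 2696, 2897 and 2402 TPM in Alb-Cre+ mice 1, 2 and 3, and 2500.0, 2760.4 and 2826 TPM in Alb-Cre- mice 1, 2 and 3. Ftl1, the light subunit that aids iron core formation, was at 4869.9, 4964 and 5887 TPM in Alb-Cre+ mice 1, 2 and 3, and 4480.2, 4994 and 5579 TPM in Alb-Cre- mice 1, 2 and 3. Neither sex nor genotype separated the livers for either gene. Genotypes differed by -0.019 (SE 0.16) for Fth1 and 0.063 (SE 0.19) for Ftl1. The sex difference of Ftl1 was -0.055 (SE 0.17). Ftl1 exceeded Fth1 in every liver, by 1.71 to 2.45 times, with the largest ratio in Alb-Cre+ mouse 3, though 54.4% of the 31-base stretches of Ftl1 also belong to the pseudogene Ftl1-ps1. Of 9 tested genes for iron sensing, iron chaperones and ferritin turnover, 0 were called between genotypes, none had an unadjusted p under 0.05 in the limma fit, and the differences ran from -0.15 to 0.15. Among them were Aco1 (0.13) and Ireb2 (-0.032), the iron regulatory proteins, and Ncoa4 (0.082), the receptor that takes ferritin to the lysosome. Between sexes 7 of 9 were higher in females and 0 were called, and 3 of 9 were higher after median-of-ratios scaling.

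Hpx encodes hemopexin, which binds free heme in plasma, and was at 3159, 17197 and 3117 TPM in Alb-Cre+ mice 1, 2 and 3, and 3933, 9396 and 7838 TPM in Alb-Cre- mice 1, 2 and 3. Hp encodes haptoglobin, which binds free hemoglobin, and was at 4227, 19818 and 3790.2 TPM in Alb-Cre+ mice 1, 2 and 3, and 4612, 8708 and 8193 TPM in Alb-Cre- mice 1, 2 and 3. For both genes the livers of Alb-Cre+ mouse 2 and Alb-Cre- mice 2 and 3 were above the other 3 and Alb-Cre+ mouse 2 was the highest. The ratio of Hp to Hpx within a liver stayed between 0.927 and 1.34. Genotypes differed by -0.26 (SE 0.70) for Hpx and -0.017 (SE 0.65) for Hp. Without Alb-Cre+ mouse 2 the values were -1.08 (unadjusted p = 0.0362, limma adjusted p = 0.953) and -0.79 (adjusted p = 0.953), in a fit where the median of all genes was -0.12, and the range of adjusted p over all alternatives was 0.953 to 1.00 for both. Without Alb-Cre+ mouse 3 they were 0.16 and 0.41.

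Hp and Hpx are acute phase genes, and some others of that class were high in the same livers. Saa1, a serum amyloid A gene, was at 66.3, 7139 and 125 TPM in Alb-Cre+ mice 1, 2 and 3 and 120.2, 2697 and 6359 TPM in the controls. Lcn2, which encodes a siderophore-binding protein that withholds iron from bacteria, was at 16.2, 2597 and 17.4 TPM in Alb-Cre+ mice 1, 2 and 3 and 41.2, 296 and 309.8 TPM in the controls. Both were chosen for display after their values were seen, and both were high in the same 3 livers as Hp and Hpx. Crp, also named after its values were seen, was not, at 255, 437 and 195 TPM in Alb-Cre+ mice 1, 2 and 3 and 319.6, 268 and 315 TPM in the controls. Summed over the 20 acute phase genes listed, which leave out Hp and Hpx, the level ran from 7539 to 36751 TPM in Alb-Cre+ livers and from 9123 to 23347 TPM in controls. Between genotypes 0 of the 20 were called, none had an unadjusted p under 0.05, and 6 were higher and 14 lower in Alb-Cre+ (median -0.10). Between sexes 20 of 20 were higher in females (19 of 20 after median-of-ratios scaling), with a median of 1.08, or 17 of 20 and 0.44 without Alb-Cre+ mouse 2. Among all genes 76.7% were higher, or 55.2% after that scaling. Without Alb-Cre+ mouse 2, 8888 of 13970 genes were higher in females, with a median of 0.14. Orm3, an alpha-1-acid glycoprotein gene, was the one called (2.96, adjusted p = 0.00827), a call lost without any 1 mouse except Alb-Cre- mouse 1 (0.0171 to 0.171), without a minimum level (0.0335) and without the variance trend (0.0235). Whether an acute phase response had a part in the differences of Hp, Hpx and Trf was not tested. Unlike Hp and Hpx, Trf was not high in Alb-Cre- mouse 3.

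The sex differences of the scavenger genes leaned on 1 liver. Hpx was higher in females by 1.61 (SE 0.43, limma adjusted p = 0.0734, and 0.0332 to 0.5004 over the alternatives) and Hp by 1.41 (SE 0.43, adjusted p = 0.0969, and 0.0522 to 0.615). Without Alb-Cre+ mouse 2, which leaves 1 female assumed to vary as the males do, the values were 0.76 and 0.50. Without the other female, Alb-Cre- mouse 2, they were 2.45 and 2.31. Whether the genotype difference depended on sex was tested as an interaction, at 1 female per genotype, so the spread came from the 4 males alone, with 2 residual degrees of freedom, and the females are assumed to vary as they do. None of the 10 was called, as 0% of all genes (0 of 14189), and Hp alone had an unadjusted p under 0.05 (0.0391), as 6.08% of all genes did (862). Its Alb-Cre+ minus Alb-Cre- difference was 1.19 between the females, and -0.13 and -1.11 between same-numbered males, an interaction of 1.81 (limma adjusted p = 0.775, and 0.508 to 0.799 over the alternatives).

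**Figure D4:**
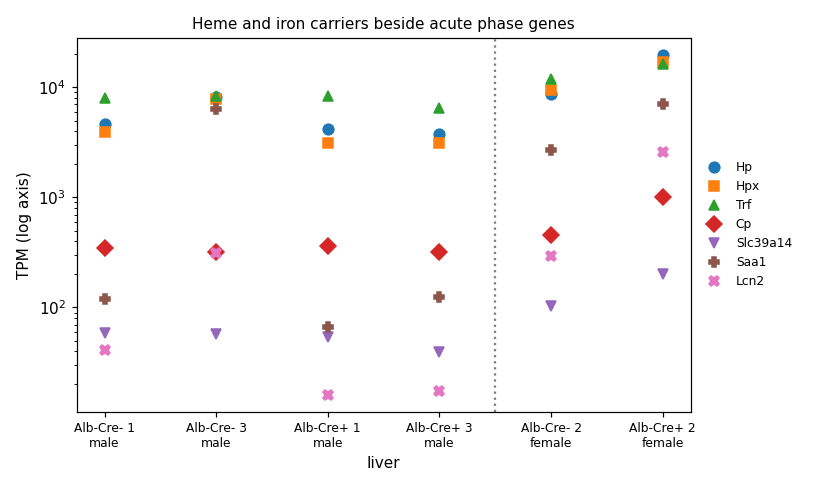
TPM on a log axis (vertical) in each liver (horizontal, 4 males left of the dotted line and 2 females right of it) for Hp, Hpx and Trf, the iron-handling genes Cp and Slc39a14, and the acute phase genes Saa1 and Lcn2. Saa1, Lcn2, Hp and Hpx are high in Alb-Cre- mouse 3 and both females, while Trf, Cp and Slc39a14 are highest in the 2 females only.

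Other genes of cellular iron uptake, reduction and export were read from the same fits. Of 14 tested, 0 were called between genotypes by limma and none had an unadjusted p under 0.05, with 9 higher and 5 lower in Alb-Cre+ and a median of 0.16. Slc39a14 encodes ZIP14, which takes up iron that is not bound to transferrin, and was at 54.3, 202 and 39.4 TPM in Alb-Cre+ mice 1, 2 and 3 and 58.2, 104 and 57.5 TPM in the controls. Its sex difference was 1.48 (SE 0.29, limma adjusted p = 0.0358), or 0.84 without Alb-Cre+ mouse 2 (adjusted p = 0.274). Cp encodes ceruloplasmin, the plasma ferroxidase that acts with ferroportin, and was at 362, 1007 and 319 TPM in Alb-Cre+ mice 1, 2 and 3 and 346, 459 and 317 TPM in the controls. Both genes were higher in the 2 females than in any male and highest in Alb-Cre+ mouse 2. The sex difference of Cp was 1.02 (SE 0.24, limma adjusted p = 0.0554), or 0.47 without that mouse. Slc11a2, the divalent metal transporter DMT1, differed by 0.24 between genotypes and 0.40 between sexes, neither called. Between sexes 9 of 14 were higher in females and 5 lower, beside 76.7% of all genes higher (median 0.77, or 0.57 after median-of-ratios scaling), and 0 were called.

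Heme genes beyond the scavengers gave no call between genotypes either. Of 15 genes for clearance, transport and breakdown of heme and hemoglobin, 0 were called and none had an unadjusted p under 0.05 (limma), 9 were higher in Alb-Cre+ and the median was 0.023. Hmox1, the inducible heme oxygenase that opens the heme ring and frees its iron, was at 35.6, 85.7 and 21.9 TPM in Alb-Cre+ mice 1, 2 and 3 and 34.7, 71.4 and 31.1 TPM in the controls. It was higher in both females than in every male, as was Cd163, and Kupffer cells express both. The sex difference of Hmox1 was 1.37 (SE 0.22, limma adjusted p = 0.0226), or 1.12 without Alb-Cre+ mouse 2. In the list 11 of 15 were higher in females, as 76.7% of all genes were (median 0.36) and 0 were called. Alas1, which encodes the rate-limiting enzyme of hepatic heme synthesis, was at 646, 288 and 427 TPM in Alb-Cre+ mice 1, 2 and 3 and 401, 663 and 191 TPM in the controls. It differed by 0.21 (SE 0.48) between genotypes and 0.20 (SE 0.52) between sexes, with the genotypes and the sexes overlapping. Of 16 heme synthesis genes, 9 were higher in Alb-Cre+ (median 0.041) and 10 were lower in females (median -0.12), with 0 called in either comparison. After median-of-ratios scaling 2 of the 16 were higher in females (median -0.34), beside 55.2% of all genes. Erythroid markers, 1 of which the synthesis list also holds, were lower in females in 6 of 7 tested. Their summed levels were 105 and 133 TPM in females against 176 to 411 TPM in males. Among all genes tested 3311 of 14189 were lower in females before scaling. Mitochondrial iron-sulfur cluster genes were the least spread of the pathway lists, with differences between genotypes of -0.090 to 0.15 over 16 genes. In either comparison 0 were called. Their median between sexes was 0.13, beside 0.26 for all genes tested, and -0.084 after median-of-ratios scaling. That scaling took the number higher in females from 12 to 2 of 16.

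Markers of the other liver cells give the makeup beside which these values stand. None of the markers was called between genotypes, and the median genotype difference was -0.13 for 10 hepatocyte genes, -0.047 for 10 sinusoidal endothelial genes, 0.097 for 10 stellate genes, -0.13 for 7 erythroid genes, 0.054 for 9 lymphocyte genes and -0.17 for 5 cholangiocyte genes. Between sexes 4 of 10 hepatocyte markers were higher in females (median -0.042), with summed levels of 79496 and 83005 TPM in females and 62928 to 84184 TPM in males. Endothelial markers were higher in 10 of 10 (summed, 233 and 264 TPM in females and 109 to 184 TPM in males). So were stellate markers in 9 of 10, lymphocyte markers in 9 of 9 and cholangiocyte markers in 4 of 5. Among all genes 76.7% were higher in females, or 55.2% after median-of-ratios scaling. After that scaling the counts were 2 of 10 hepatocyte, 10 of 10 endothelial, 8 of 10 stellate, 9 of 9 lymphocyte and 3 of 5 cholangiocyte markers. Lymphocyte markers summed to 3.298 to 10.4 TPM over all livers.

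The genes whose pattern over the 6 livers came closest to 3 of the iron genes were ranked by Pearson's r of log2(TPM + 0.1), among genes averaging 1 TPM or more. With 6 livers very high values of r are common, and they are given as a description, over livers that share the same sexes, genotypes and replicate numbers. Closest to Hamp were Pnldc1 (r = 0.976), Otulin (0.952) and Smim20 (0.944). Closest to Hamp2 were Kctd10 (0.999), Lpxn (0.998) and Cd5l (0.998). Cd5l, a gene of Kupffer cells, was at 64.6, 191 and 38.6 TPM in Alb-Cre+ mice 1, 2 and 3, and 66.4, 194 and 63.99 TPM in Alb-Cre- mice 1, 2 and 3, with the females highest and Alb-Cre+ mouse 3 lowest, as for Hamp2. Closest to Tfrc were Alb (0.994), Ywhae (0.993) and Nme3 (0.993). Alb, the albumin gene, was lowest in Alb-Cre+ mouse 3, as Tfrc was, at 38059 TPM.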

How the data were processed

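The authors deposited TPM for 116748 transcripts in each liver, adding up to 1000000 per mouse. The table is labelled as Salmon output, while the methods and the submitters' processing notes name STAR, RSEM and DESeq2 with GRCm38. A second deposited table holds the authors' DESeq2 comparison (mean normalized counts, log2 fold changes, standard errors, test statistics and p-values) and was not used. TPM were summed by gene symbol. The 163 transcripts without a symbol, 0.0515% to 0.0887% of TPM, were left out. TPM hold no read numbers, so depth and counting error are unknown, and 10059 to 11125 genes reached 1 TPM per liver.

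The 14189 genes whose mean reached 0.1 TPM were modelled as log2(TPM + 0.1) in limma (version 3.58.1, R 4.3.3), with a variance trend and two-sided tests, for genotype alone, for sex with genotype as a term, and for their interaction. P-values were adjusted by Benjamini-Hochberg over all genes tested. The exact permutation test was run in scipy 1.17.1. Only the genotype fit, without the minimum level, was also run on simulated data. Alternatives were a pseudocount of 1 TPM, no minimum, a minimum of 1 TPM, median-of-ratios scaling, no variance trend, each mouse left out, a threshold of 0.05, the replicate number as a block, sex as a covariate and males alone. Replicate block with median-of-ratios scaling, and scaling for overlap, were added after seeing the data.

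Deviations from the genotype means correlated at 0.367, 0.588 and 0.370 between same-numbered mice and at -0.444 to 0.171 between others, so the numbers pair the mice. The labels do not say what the numbers mark.

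The iron genes and the lists (hepcidin regulation, iron uptake and export, iron sensing and ferritin turnover, heme clearance and breakdown, heme synthesis, iron-sulfur clusters, acute phase, and markers of 7 cell types) were chosen with earlier results of these data known. Named were the 10 genes, Surf4, list genes with an adjusted p under 0.01, list genes with the smallest p between genotypes where this was under 0.05 (there were none), 15 genes for their roles, and for Hamp, Hamp2 and Tfrc the 3 closest genes by Pearson's r. Hairpins were searched in GENCODE M21 transcripts, and promoters are RefSeq windows (GRCm38.p6) that were found for 7 of the 10 genes.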

Additional observations from a re-analysis of the deposited data

How the results depend on the processing

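The count of genes called between genotypes was 0 under every alternative except leaving out Alb-Cre+ mouse 1 (0 to 1 over the 6 left-out mice; the gene, Gm10240, is named after its value was seen), and the 10 iron genes gave 0 calls in each. With same-numbered mice paired in a replicate block, 0 genes and 0 iron genes were called, and 666 genes had an unadjusted p under 0.05 in place of 250. With median-of-ratios scaling added, 0 were called. The block was run for the genotype comparison only. Sex cannot be fitted beside it, because both females and no male carry the number 2. The sign of several genotype differences, none of them called, turned on 1 mouse: leaving out each in turn gave -0.88 to 0.39 for Hamp2, -0.33 to 0.34 for Trf, -0.52 to 0.18 for Tfrc, -0.27 to 0.21 for Slc40a1, -0.081 to 0.054 for Fth1, -0.023 to 0.14 for Ftl1, -1.08 to 0.16 for Hpx and -0.79 to 0.41 for Hp. In males alone Trf was at -0.14, Slc40a1 at -0.14, Hpx at -0.82 and Hp at -0.62, where the median of all genes was -0.082. Hamp and Tfr2 kept their sign under all alternatives. Median-of-ratios scaling left 0 iron genes without overlap between genotypes, in place of 1. Between sexes 73 genes were called in the fit reported, 28 without a minimum level, 31 without the variance trend, 1019 at a threshold of 0.05, and 3 to 51 with 1 mouse left out, where 3 were left without either female. Of the 10 genes 1 (Hamp2) was called at 0.05, and 0 to 1 with 1 mouse left out. Median-of-ratios scaling gave -0.11 for Tfr2 and -0.10 for Fth1 between sexes, and leaving out each mouse gave -0.13 to 0.011 for Ftl1. For the interaction of genotype and sex, 323 genes were called without a minimum level and 0 in the fit reported. Apart from the choices whose construction explains a count (fewer mice, another threshold), the cause of these shifts was not tested. With 3 mice per genotype and 2 females in all, depth unknown, a difference inside the intervals given is not shown to be absent.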

Other observations

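The transcripts behind each gene differed in number. 1 transcript carried 89.2% or more of the TPM of Hamp, Hamp2, Slc40a1, Fth1, Ftl1, Hpx and Hp in every liver. For Tfr2 the leading transcript carried 39.5% to 44.1%, for Trf 43.95% to 47.3%, and for Tfrc 62.5% to 86.8%. The lowest Tfrc share, 62.5%, was in the Alb-Cre- female and the highest, 86.8%, in the Alb-Cre+ female. TPM of single transcripts of 1 gene are estimates from shared reads, and no test was made of them.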
